A study of Homo sapiens with 11 samples.

Results

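Endoplasmic reticulum (ER) chaperones and folding enzymes were followed through chromatin maps of human pancreatic cancer cells, as a group of 37 genes named by symbol for their known roles. All 37 were found among 20033 protein-coding genes of the annotation, and all 37 were among the 16128 genes whose window held an H3K27ac peak summit in both MYRFWT libraries. For each gene the window was its GRCh38 span extended by 20 kb on each side, and the other 16091 genes served for comparison. By role the group held 8 members of the Hsp70 system, 1 Hsp90, 3 lectin chaperones, 13 protein disulfide isomerase (PDI) family proteins, 3 thiol oxidases, 7 prolyl isomerases and 2 secreted stress proteins.

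Proteins that enter the secretory pathway fold inside the ER, where chaperones hold unfolded chains, PDI enzymes form and rearrange disulfide bonds, and prolyl isomerases turn proline bonds. When unfolded chains accumulate, the unfolded protein response raises the genes of this machinery, in part through the factors ATF6 and XBP1, which act on short promoter elements. MYRF is a transcription factor that is anchored in the ER membrane until it cuts itself and frees its nuclear part, and the study title links it to ER homeostasis in pancreatic cancer.

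Chromatin immunoprecipitation followed by sequencing had been done in CFPAC1 and HPAF2, both human pancreatic ductal adenocarcinoma lines, with 2 libraries for each of 5 groups. H3K27ac, an acetylation of histone H3 that marks active promoters and enhancers, was mapped in MYRFKO and MYRFWT cells. Per the labels, MYRFKO is a CFPAC1 clone infected with the lentiCRIPSv2 plasmid expressing wild-type Cas9 and a guide against MYRF, and MYRFWT is a CFPAC1 clone infected with that plasmid, with no guide stated. FOS, which pairs with JUN proteins in AP-1, was mapped in a clone described as for MYRFWT, and MYRF itself in the unmodified CFPAC1 and HPAF2 lines with an antibody made by the submitters. Knockout and control differed in clone as well as in MYRF, and these cannot be told apart. The labels do not say that the libraries of a group came from separate cultures, so the spread between them may be technical. No drug or ER stressor is named in the labels.

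The H3K27ac lists held 107586 and 110498 peaks in MYRFKO and 116466 and 109352 in MYRFWT, the FOS lists 29087 and 36349, and the MYRF lists 4743 and 4041 (CFPAC1) and 3702 and 4326 peaks (HPAF2). The lists hold no read counts, so their depth is unknown. All 8 epithelial marker genes checked, among them KRT19 and EPCAM, carried H3K27ac in their gene bodies in all 4 H3K27ac libraries. The acinar genes PRSS1 and PTF1A, the endocrine genes INS and CHGA and the fibroblast gene DCN were at 0 in all 4. The acinar gene CELA3A had 1327 and 1537 bp covered in MYRFKO and 1399 and 1671 bp in MYRFWT, while CPA1, also acinar, had 416 bp in MYRFWT library 2 alone. The endocrine gene GCG had 342 and 421 bp in MYRFKO and 423 and 0 bp in MYRFWT, and the fibroblast gene PDGFRB 724 and 0 bp in MYRFKO and 224 and 0 bp in MYRFWT. PTPRC, a leukocyte gene, had 4724 and 11562 bp covered in MYRFKO and 10172 and 9166 bp in MYRFWT. Over the 3 leukocyte markers the covered length summed to 5088 and 12673 bp in MYRFKO and 11136 and 10597 bp in MYRFWT, and 2 of the 3 were covered in all 4 libraries. Both endothelial markers, PECAM1 and CDH5, were covered as well. The part of any other cell type in the results was not tested. These lists cannot show the edit of MYRF, since H3K27ac does not read the coding sequence.

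Promoter sequences of 34 of the 37 members were found in the RefSeq table for GRCh38.p14, and PDIA3, FKBP10 and FKBP14 are named only. The ER stress response element (ERSE) is the pattern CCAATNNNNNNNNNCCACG, read on either strand, and was defined on ER chaperone promoters such as those of HSPA5, HSP90B1 and CALR, so a match there is no finding of these data. It lay in the promoters (250 bp before to 50 bp after the start) of 7 of 34 members, or 20.6%, against 0.0886% of 15808 other protein-coding genes and 0.0769% of all 35116 promoters in the table. The related ERSE-II, ATTGGNCCACG, lay in 2 members, HYOU1 and SDF2L1, or 5.88%, against 0.0822% of other genes and 0.0541% of all promoters. The elements are shown because they mark the place in each promoter to which the acetylation is compared below, with the fixed letters in capitals.
HSPA5 (ERSE): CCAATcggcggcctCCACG
HSP90B1 (ERSE, upstream copy): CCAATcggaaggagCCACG
HSP90B1 (ERSE, copy nearer the start): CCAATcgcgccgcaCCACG
CALR (ERSE): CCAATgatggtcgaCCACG
CANX (ERSE): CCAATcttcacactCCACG
PDIA6 (ERSE): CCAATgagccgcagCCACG
CRELD2 (ERSE): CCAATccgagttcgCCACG
ERO1B (ERSE): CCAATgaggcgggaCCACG
HYOU1 (ERSE-II, both copies): ATTGGaCCACG
SDF2L1 (ERSE-II): ATTGGtCCACG

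In HSPA5, which encodes the ER Hsp70, the element ended 48 bp before the start. HSP90B1, the ER Hsp90, held an element on each strand, and HYOU1, an Hsp70 relative that also acts as an exchange factor for HSPA5, held both of its ERSE-II copies on the strand opposite to the gene. The 250 bp before the start of these 3 genes are printed to show the elements in place, with the fixed letters of each element in capitals; CGTGG with ATTGG, or CGTGG with CCAAT, is an element read from the other strand. In the HSPA5 sequence the capitals TGA and TCA mark an AP-1 match in addition. The sequences come from RefSeq, GRCh38.p14.
HSPA5, chr9:125241344-125241593, minus strand: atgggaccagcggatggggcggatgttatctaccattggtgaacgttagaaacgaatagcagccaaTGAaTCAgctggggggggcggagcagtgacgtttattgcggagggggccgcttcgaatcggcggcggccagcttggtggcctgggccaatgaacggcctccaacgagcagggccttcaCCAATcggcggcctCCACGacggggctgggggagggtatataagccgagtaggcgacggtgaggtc
HSP90B1, chr12:103930160-103930409, plus strand: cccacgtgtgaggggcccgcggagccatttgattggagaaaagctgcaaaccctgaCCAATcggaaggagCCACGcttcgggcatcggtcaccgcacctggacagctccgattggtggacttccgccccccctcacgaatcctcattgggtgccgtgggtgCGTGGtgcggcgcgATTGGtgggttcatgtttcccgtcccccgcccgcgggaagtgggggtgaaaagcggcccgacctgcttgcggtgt
HYOU1, chr11:119057206-119057455, minus strand: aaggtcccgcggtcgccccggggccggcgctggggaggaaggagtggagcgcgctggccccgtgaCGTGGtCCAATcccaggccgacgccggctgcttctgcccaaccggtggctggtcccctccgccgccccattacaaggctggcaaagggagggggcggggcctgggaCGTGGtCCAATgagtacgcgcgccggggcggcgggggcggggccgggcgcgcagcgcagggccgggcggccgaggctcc

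The pattern TGANTCA, to which AP-1 binds, was found on either strand in the promoter of 1 of 34 members, HSPA5, or 2.94%, against 8.05% of other genes and 7.71% of all promoters. CTGGCAC or CTGGTAC, core letters bound by MYRF, were found in 2 members, or 5.88%, against 9.1% of other genes and 7.21% of all promoters. These 2 were FKBP2, which encodes a prolyl isomerase, and PDIA4, a PDI family enzyme with several thioredoxin domains. Neither had a MYRF peak within 1 kb of a listed start.

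No MYRF peak stood at the start of a member. Within 1 kb of a listed start, 0 of 34 members had a MYRF peak in both CFPAC1 libraries, against 2.32% of other genes, and 0 had one in both HPAF2 libraries, against 1.87%. FOS peaks stood within 1 kb of the start of 4 members in both libraries, ERP29, FKBP2, FKBP7 and PDIA5, against 14.2% of other genes. Nearly every member start was acetylated. H3K27ac lay within 1 kb in both MYRFKO libraries for 33 of 34 members, against 78.4% of other genes, and in both MYRFWT libraries for 34 of 34, against 79% of other genes. The exception was ERO1B, a thiol oxidase of secretory cells, which had no peak in MYRFKO library 2.

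Member starts carried H3K27ac peaks of ordinary rank. Within each list, the strongest peak at a member start was placed by percentile, the share of the list's peaks with a fold enrichment at or below its own. The median percentile over members was 90.9 and 89.4 in the MYRFKO lists, against 89.4 and 87.3 over other genes with a peak at the start. In the MYRFWT lists it was 88.8 and 86.8 over members, against 87.7 and 87.9 over other genes. In 3 of the 4 lists the members' median was the higher, and in each list it lay inside the middle range of other genes. CANX, the membrane-bound lectin chaperone calnexin, stood near the top, at percentiles 99.9 and 99.9 in the MYRFKO lists and 97.5 and 98.6 in the MYRFWT lists.

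The stress elements lay outside the acetylated regions. None of the 11 distinct ERSE and ERSE-II elements, in 9 members, overlapped an H3K27ac peak in any of the 4 libraries. In HSPA5 the element at chr9:125241391-125241409 sat between a region over the start of the gene, chr9:125239919-125241368, and one upstream, chr9:125241585-125242758, and both regions had peaks in all 4 libraries. Over the 33 members acetylated within 1 kb of a listed start in all 4 libraries, the base 50 bp upstream lay outside every H3K27ac peak in 20, or 60.6%, against 37.6% of 10043 other genes. CALR, CRELD2, HSP90B1, HSPA5, HYOU1, PDIA6 and SDF2L1 were among the 20. The elements began as far as 243 bp upstream of a start, and other genes were not measured at those distances. Whether the gap in acetylation is particular to the elements was therefore not tested.

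Elsewhere in the windows, MYRF summits were found in similar shares of members and of other genes. Per 100 kb, member windows held 0.494 CFPAC1 MYRF summits, against 0.27 in windows of other genes. For HPAF2 the values were 0.238 and 0.216, and these densities were not tested. The CFPAC1 summits of libraries 1 and 2 lay in 6 and 7 members, or 16.2% and 18.9%, against 19.8% and 18.0% of other genes. Many were in the windows of HSP90B1 (2 and 5), CANX (4 and 2) and ERP29 (3 and 3). A MYRF summit lay in the window in both CFPAC1 libraries in 5 of 37 members, or 13.5%, against 14.2% of other genes. It did so in both HPAF2 libraries in 5 of 37, or 13.5%, against 13.1%, and in all 4 MYRF libraries in 3 of 37, or 8.11%, against 7.75%. The 5 for CFPAC1 were CANX, HSP90B1, ERP29, TXNDC11 and FKBP10, and the 5 for HPAF2 were DNAJB11, HSP90B1, ERO1A, TXNDC11 and FKBP10. In 26 members no MYRF library had a summit. Counting only peaks with a −log10 q of at least 10, MYRF was in both CFPAC1 libraries in 1 member, in both HPAF2 libraries in 2 and in all 4 in 1, against 5.69%, 5.95% and 3.29% of other genes.

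**Figure D1:**
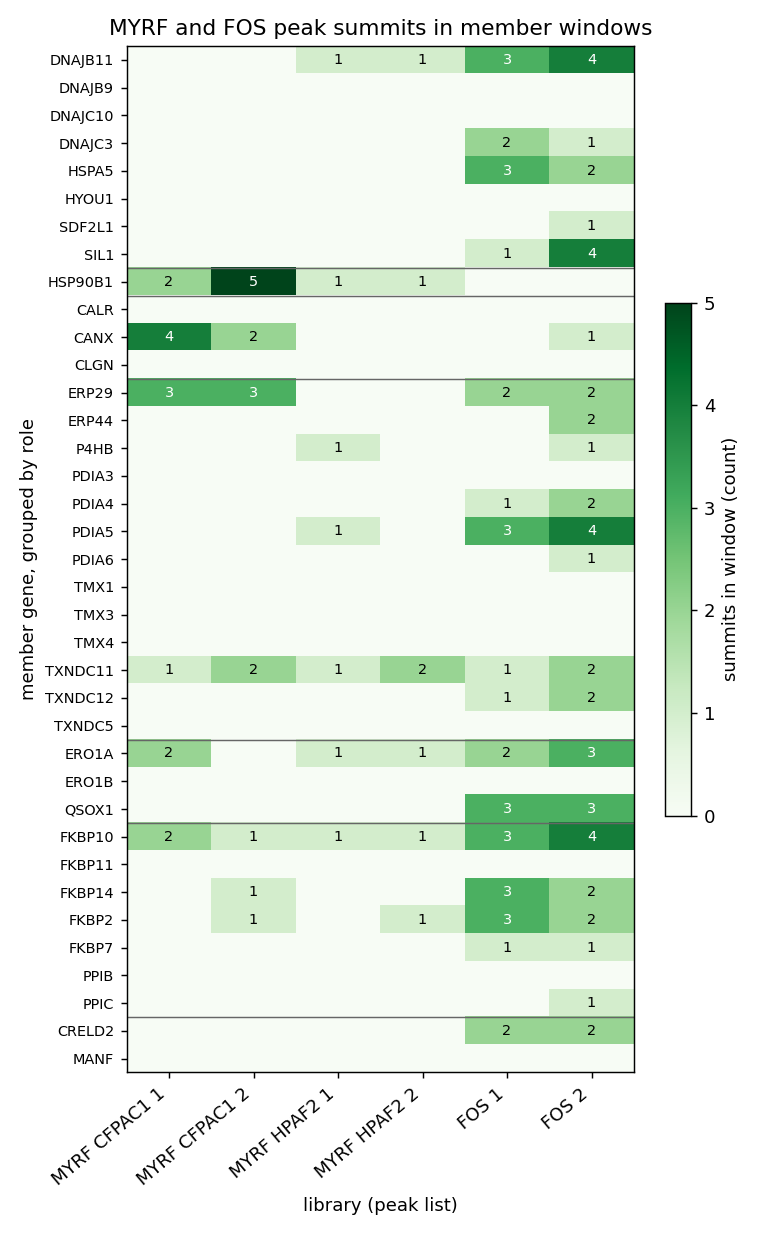
Number of MYRF and FOS peak summits in the window of each member (rows, grouped by role) in each library (columns); darker green and a printed number mean more summits, and blank cells mean none. MYRF summits were found in 11 members and were absent from the other 26.

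The same place was not always occupied. Requiring that the peaks of both libraries overlap, a criterion chosen after seeing the data, left 4 members in CFPAC1, CANX, ERP29, TXNDC11 and FKBP10, or 10.8%, against 12.9% of other genes. It left 4 in HPAF2, DNAJB11, ERO1A, TXNDC11 and FKBP10, or 10.8%, against 12.4%, and 2 over all 4 libraries, TXNDC11 and FKBP10, or 5.41%, against 6.76%. HSP90B1 was in neither list. Its window held 2 and 5 MYRF summits in CFPAC1 and 1 and 1 in HPAF2, spread over 7 sites, none of them in both libraries of 1 line.

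Across all members there were 30 MYRF sites, of which 22 were in 1 library, 6 in 2 and 2 in 4. Of the 30, 20 overlapped no H3K27ac peak in any of the 4 libraries, 8 overlapped one in all 4 and 2 in some. The windows of HSP90B1, CANX and ERP29 held 17 of the sites, and 16 of those 17 lacked H3K27ac. Over the whole MYRF lists, 28.1% and 24.1% of CFPAC1 peaks and 21.0% and 22.2% of HPAF2 peaks lacked H3K27ac in all 4 libraries. The HPAF2 sites were compared with H3K27ac of another line, CFPAC1.

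The HSP90B1 sites ranked between percentiles 9.57 and 67.5 of their lists by fold enrichment. In CFPAC1 library 1 the fold enrichment was 5.58 and 4.23, at percentiles 59.4 and 24.7. In CFPAC1 library 2 the 5 sites had folds between 3.76 and 6.22, at percentiles 38.1, 31.0, 44.5, 10.4 and 67.5 in the order of their distance from the start. The HPAF2 sites had folds of 4.10 and 3.68, at percentiles 19.7 and 9.57. Of the 7 sites, 5 lay inside the transcribed part of HSP90B1, between 8497 and 17081 bp downstream of its start, and 2 inside the neighbouring UQCC6. One of the UQCC6 sites, chr12:103956978-103957315, was acetylated in all 4 libraries. The map of peaks in 4 windows shows how these sites lie apart from one another.

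CANX held 4 and 2 summits in CFPAC1 and 0 and 0 in HPAF2. Its 5 sites lay within the gene, between 8793 and 29683 bp downstream of a listed start, without H3K27ac or FOS. The site in both CFPAC1 libraries, chr5:179719163-179719733, had folds of 4.27 and 5.32, at percentiles 26.4 and 48.8. ERP29 encodes a PDI-like protein without the usual active-site cysteine pair, and its window held 3 and 3 summits in CFPAC1 and 0 and 0 in HPAF2. All 5 ERP29 sites lay inside the neighbour NAA25, and the shared one, chr12:112039755-112040162, had folds of 4.35 and 4.98. In both genes the summits were in CFPAC1 libraries and absent from the HPAF2 lists.

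**Figure D2:**
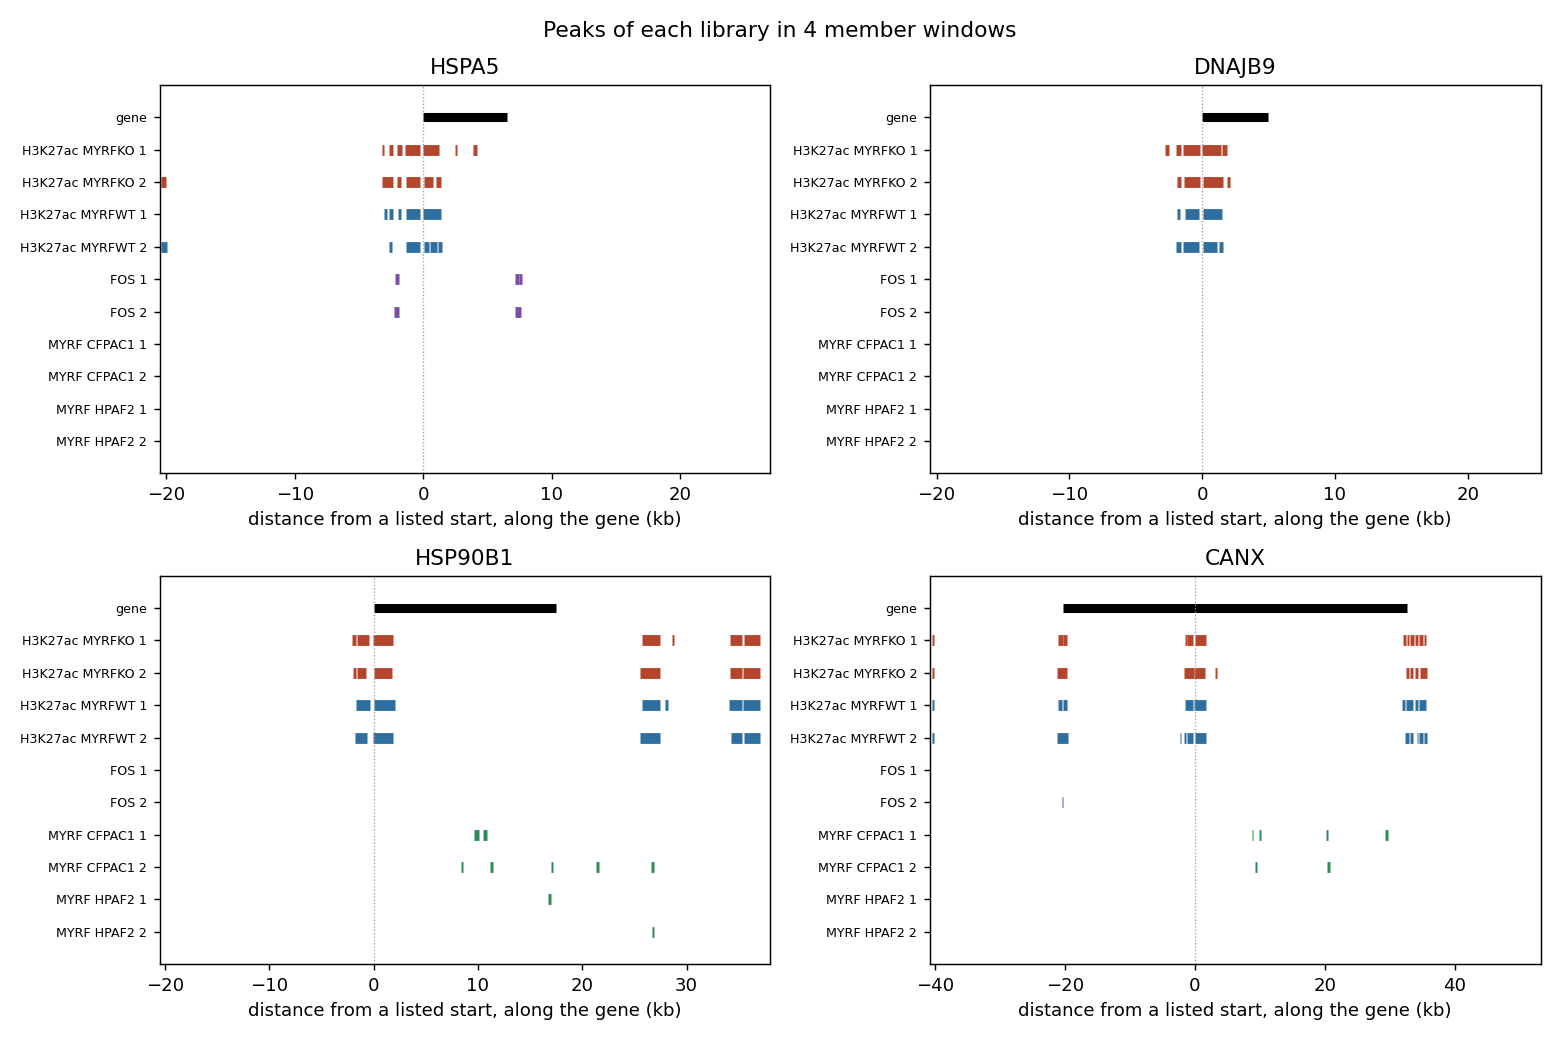
Peaks of each library (rows) in the windows of HSPA5, DNAJB9, HSP90B1 and CANX, drawn to scale by distance in kb from a listed start along the gene; the black bar is the annotated gene. H3K27ac flanks each start in all 4 libraries, HSPA5 and DNAJB9 show no MYRF peak, and the MYRF peaks of HSP90B1 and CANX are scattered downstream of the start.

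The 2 members with 1 site in all 4 MYRF libraries had it next to another gene. In the window of FKBP10, a prolyl isomerase that acts on collagens, the site chr17:41792735-41793806, at the outer edge of the window, had folds of 14.8 and 14.4 in CFPAC1 and 17.5 and 20.6 in HPAF2. Its percentiles were 94.5, 93.7, 95.3 and 96.3, it overlapped FOS peaks in both libraries and H3K27ac in all 4, and its nearest gene was JUP, 6659 bp away. In the window of TXNDC11, a thioredoxin-domain protein, the site chr16:11675540-11676169 lay inside the neighbour SNN, 67082 bp downstream of the TXNDC11 start. Its folds were 6.02 and 6.18 in CFPAC1 and 10.1 and 11.9 in HPAF2, it overlapped FOS peaks in both libraries, and of the 4 H3K27ac lists only that of MYRFWT library 2 had a peak there. Assigning each summit to its nearest protein-coding gene alone left 0 members with MYRF in all 4 libraries, 2 in both CFPAC1 and 2 in both HPAF2 libraries, against 5.39%, 9.88% and 9.3% of other genes.

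The sites that were in both HPAF2 libraries but not in CFPAC1 were weak. In DNAJB11, which encodes a J-domain partner of HSPA5, the site chr3:186590037-186590312 had folds of 3.89 and 4.14, at percentiles 14.8 and 18.9, and lay 4361 bp beyond the end of the gene. In ERO1A, an oxidase that recharges PDI enzymes, the site chr14:52700712-52701012 had folds of 3.01 and 3.70, at percentiles 1.97 and 9.87, and lay 5286 bp upstream of the gene. Both overlapped FOS peaks in both FOS libraries and H3K27ac in all 4 H3K27ac libraries, all of them from CFPAC1 clones.

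FOS summits were found in fewer member windows than in windows of other genes. Both FOS libraries had a summit in 16 of 37 members, or 43.2%, against 62.6% of other genes, and at the same site in 15, or 40.5%, against 61.7%. The member windows were shorter, with a median of 60.8 kb against 68.5 kb, and held 1.38 FOS summits per 100 kb, against 1.69 in windows of other genes. In 15 members neither FOS library had a summit, and in 6 only 1 of them did. With a −log10 q of at least 10 the count was 10, against 37.1% of other genes. No test was made of this difference.

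By role, the Hsp70 system had FOS sites in both libraries in HSPA5, SIL1, DNAJB11 and DNAJC3. In HSPA5 a site 2064 bp upstream of the start, chr9:125243215-125243619, had folds of 8.29 and 9.21, at percentiles 80.9 and 83.8. The highest FOS percentiles among shared member sites, 97.0 and 95.2, were at a site inside DNAJC3, a J-domain protein that also restrains the stress kinase PERK. Among oxidases, QSOX1, which oxidises thiols along the secretory pathway, held 3 shared sites, of which the one 3113 bp upstream of its start had folds of 8.08 and 9.43. The Hsp90 gene and the lectin chaperones CALR and CLGN had no FOS summit in either library, and CANX had 1 in library 2.

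Of the 26 sites shared by both FOS libraries, in 15 members, 19 overlapped H3K27ac in all 4 libraries and 3 in none. Inside the member gene itself lay 9 of the 26. A MYRF peak of at least 1 library overlapped 6 of the 26, in the windows of DNAJB11, TXNDC11, ERO1A, FKBP2, FKBP10 and FKBP14. In DNAJB11, ERO1A and FKBP2 the MYRF peaks were from HPAF2 alone, while FOS was mapped in a CFPAC1 clone. In FKBP10 and FKBP14 they were from 1 CFPAC1 library. The FKBP10 peak, at percentile 7.02, was apart from the site in all 4 MYRF libraries. Among the 26, only the TXNDC11 site had MYRF in both CFPAC1 libraries. The FKBP10 site in all 4 MYRF libraries also overlapped FOS peaks in both libraries, with FOS folds of 4.21 and 9.75. That site was not counted among the 26, since its summit in FOS library 2 lay outside the window.

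**Figure D3:**
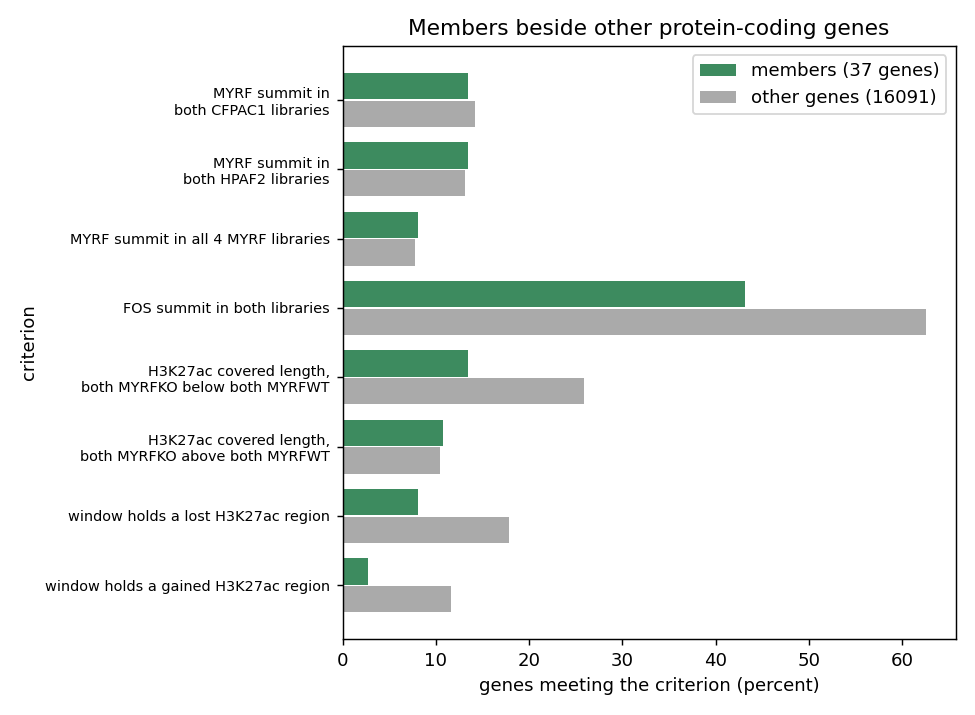
Share of the 37 members (green, upper bar of each pair) and of 16091 other protein-coding genes (grey, lower bar) that met each criterion, in percent. The MYRF shares lie close together, while FOS in both libraries was found in 43.2% of members and 62.6% of other genes.

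The length covered by H3K27ac peaks in member windows was close to equal in MYRFKO and MYRFWT. Over members the median covered length was 3780 and 3905 bp in the MYRFKO libraries and 3876 and 4727 bp in the MYRFWT libraries, and over other genes it was 4262 and 4257 bp in MYRFKO and 4507 and 4414 bp in MYRFWT. The difference was fitted with limma on log2(bp + 500), centred on each library's median, as MYRFKO minus MYRFWT with 2 libraries each. On that scale, which understates changes of short lengths, the median difference was 0.050 over members and 0.0065 over other genes. Above 0 were 24 members and 8290 other genes, and below 0 were 13 members and 7801 other genes. Without centring the median difference was −0.0092 over members and −0.053 over other genes. The library medians themselves differed by −0.060 (log2, MYRFKO minus MYRFWT). The sign of the members' median, and of several single members, thus depended on the centring.

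No member passed the adjusted p threshold of 0.05 (limma, Benjamini-Hochberg adjustment over 16128 genes). Of other genes 0% were called lower and 0% higher in MYRFKO. At an unadjusted p under 0.05, limma had 0 of 37 members and 875 of 16091 other genes. Of those 875, 521 were lower and 354 higher in MYRFKO. The lowest adjusted p was 0.928 among members and 0.393 among other genes. The standard error of a member's difference ran between 0.113 and 0.583, with a median of 0.131, with 2 libraries per clone. Fitted differences of other genes ran between −2.359 and 1.725, and none of those genes was called. That 0 members were called therefore sets no bound on the size of their differences.

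Without a test, both MYRFKO libraries lay below both MYRFWT libraries in 5 members, or 13.5%, against 25.9% of other genes, and above them in 4, or 10.8%, against 10.5%. The 5 were QSOX1, FKBP2, HYOU1, FKBP11 and TMX3, and the 4 were HSPA5, DNAJB9, DNAJC10 and TMX4. In the other 28 members the clones overlapped. These counts are on the covered length as it is, and they changed when each library was centred on its median, a setting chosen after seeing the data. Below were then 2 members, QSOX1 and TMX3, or 5.41%, against 16.1% of other genes. Above were 9, TXNDC12, DNAJC10, PPIC, CANX, DNAJB9, HSPA5, TMX1, PPIB and TMX4, or 24.3%, against 17.9% of other genes. HYOU1, FKBP2 and FKBP11 overlapped after centring. Each of the 4 libraries set these counts: the count below was 17 without MYRFKO library 1, 11 without MYRFKO library 2, 12 without MYRFWT library 1 and 12 without MYRFWT library 2, against 45.9%, 43.3%, 41.8% and 42.4% of other genes. The count above was 9, 13, 9 and 9 in the same order of libraries, against 23.5%, 28.6%, 23.7% and 23.4%. With a −log10 q of at least 10, 11 members lay below, against 27.1% of other genes.

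**Figure D4:**
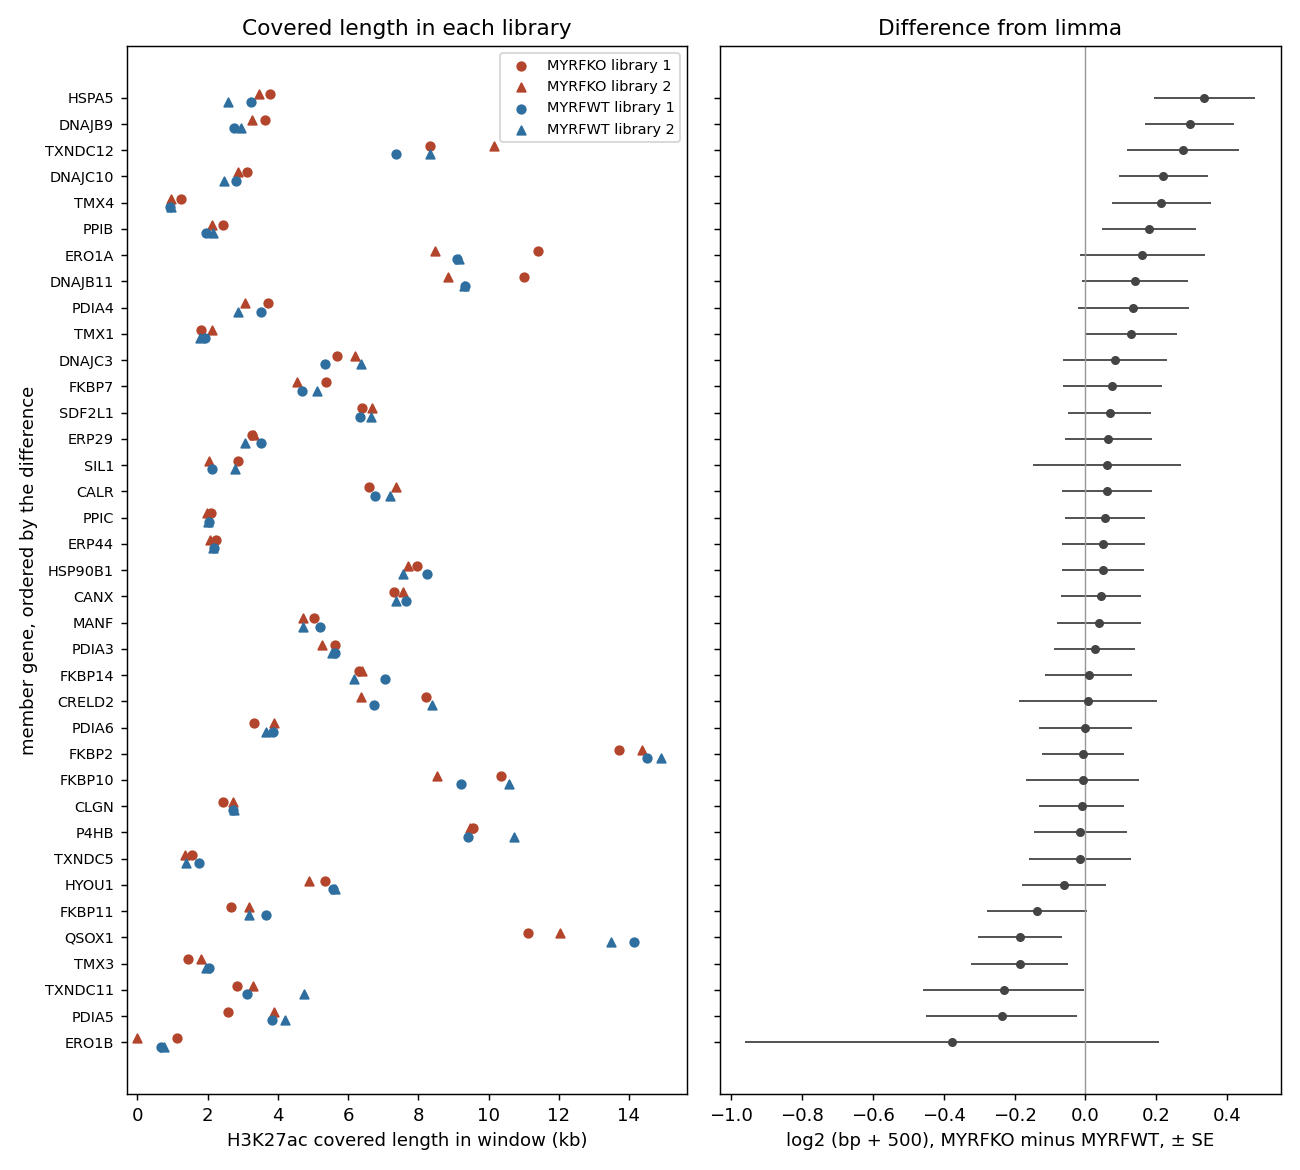
Left, length covered by H3K27ac peaks in each member's window in kb, for both MYRFKO libraries (red) and both MYRFWT libraries (blue); right, the limma difference on log2(bp + 500), MYRFKO minus MYRFWT, with its standard error. HSPA5 and DNAJB9 stand at the top with 0.34 and 0.29, and no difference passed the adjusted threshold.

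HSPA5 and its J-domain partners lay on the positive side. HSPA5 had 3780 and 3451 bp covered in MYRFKO, against 3227 and 2595 bp in MYRFWT, a log2 difference of 0.34 ± 0.14 (SE; limma, adjusted p = 0.928). The clones did not overlap over the window, but they did within 2 kb of the start, with 2726 and 2482 bp in MYRFKO and 2737 and 2330 bp in MYRFWT. A region centred at −1873 bp from the start, overlapping the upstream FOS site, covered 335 and 301 bp in MYRFKO and 238 and 0 bp in MYRFWT. Regions inside the gene, of 323 and 200 bp, were in MYRFKO library 1 alone. Farther upstream, a peak of MYRFKO library 2 ran from −3226 to −2344 bp, with a fold of 13.5. Peaks there were shorter in MYRFKO library 1, MYRFWT library 1 and MYRFWT library 2, with top folds of 6.1, 6.7 and 3.42. The HSPA5 difference was 0.21 without MYRFWT library 2, 0.17 with 50 kb flanks and 0.97 with a −log10 q of at least 10, and it was called in none of these.

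DNAJB9, whose protein recruits HSPA5 to misfolded chains and to the stress sensor IRE1, had 3639 and 3261 bp in MYRFKO, against 2758 and 2954 bp in MYRFWT. The log2 difference was 0.29 ± 0.13 (SE; limma, adjusted p = 0.929), and all of the covered length lay around its start, where MYRF and FOS had no peak. With 50 kb flanks it was 0.12. DNAJC10, a J-domain protein that reduces disulfides, had 3134 and 2867 bp in MYRFKO and 2815 and 2456 bp in MYRFWT. In both genes the MYRFKO libraries were the higher pair, by a narrow margin in DNAJC10.

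DNAJB11 had 11005 and 8854 bp in MYRFKO and 9334 and 9303 bp in MYRFWT. SDF2L1, a partner of DNAJB11, had 6397 and 6675 bp in MYRFKO and 6340 and 6646 bp in MYRFWT. HYOU1 had 5351 and 4899 bp in MYRFKO and 5570 and 5640 bp in MYRFWT. The clones overlapped in DNAJB11 and SDF2L1, and HYOU1 was lower in both MYRFKO libraries before centring only. Of the 8 genes of the Hsp70 system, 7 had a positive difference after centring, none of them called, and HYOU1 was the exception. Among the 16091 other genes, 8290 were positive. SIL1, SDF2L1 and DNAJC3 had small values, 0.060, 0.068 and 0.083. The differences of SIL1, DNAJB11 and DNAJC3 changed sign in some alternative settings.

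In uncentred covered length, HSP90B1 and the lectin chaperones CALR and CANX overlapped between the clones. HSP90B1 had 7977 and 7715 bp in MYRFKO and 8238 and 7572 bp in MYRFWT. CALR, the soluble lectin chaperone calreticulin, had 6599 and 7364 bp in MYRFKO and 6762 and 7185 bp in MYRFWT. CANX had 7297 and 7571 bp in MYRFKO and 7654 and 7379 bp in MYRFWT. In none of the 3 did the clones' means differ by more than the libraries of a clone did, and only CANX separated after centring.

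The PDI family was likewise mixed, with 7 positive and 6 negative differences among 13 genes. P4HB, the founding PDI, had 9567 and 9480 bp in MYRFKO and 9405 and 10738 bp in MYRFWT. PDIA3, which works with the lectin chaperones, had 5624 and 5272 bp in MYRFKO and 5630 and 5540 bp in MYRFWT. PDIA4 had 3714 and 3067 bp in MYRFKO and 3508 and 2876 bp in MYRFWT. In all 3 genes the clones overlapped.

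PDIA6, which also binds stress sensors, had 3318 and 3891 bp in MYRFKO and 3876 and 3666 bp in MYRFWT. ERP29 had 3270 and 3322 bp in MYRFKO and 3517 and 3062 bp in MYRFWT, and TXNDC11 had 2838 and 3306 bp in MYRFKO and 3125 and 4744 bp in MYRFWT. These 3 overlapped between the clones. TMX3 and TMX4 are membrane-bound relatives of thioredoxin that did not overlap and lay on opposite sides. TMX3 had 1448 and 1801 bp in MYRFKO and 2053 and 1967 bp in MYRFWT, and TMX4 had 1240 and 967 bp in MYRFKO and 922 and 949 bp in MYRFWT. Neither difference was called.

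Among the oxidases QSOX1 had 11133 and 12045 bp in MYRFKO, against 14131 and 13487 bp in MYRFWT, a log2 difference of −0.18 ± 0.12 (SE; limma, adjusted p = 0.943). Both MYRFKO libraries were lower, and they were lower within 2 kb of the start too, with 2970 and 3111 bp in MYRFKO and 3250 and 3195 bp in MYRFWT. ERO1A had 11419 and 8468 bp in MYRFKO and 9111 and 9169 bp in MYRFWT, and the MYRFKO libraries lay on both sides of MYRFWT. ERO1B had the largest negative fitted value among members, −0.38 ± 0.58 (SE), set by MYRFKO library 2, which had 0 bp, against 1127 bp in MYRFKO library 1 and 679 and 763 bp in MYRFWT. Without MYRFKO library 2 the fitted value was 0.47, and without MYRFKO library 1 it was −1.23. The QSOX1 difference was −0.35 with a −log10 q of at least 10, and was not called.

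Among the prolyl isomerases FKBP11 had 2674 and 3177 bp in MYRFKO and 3660 and 3184 bp in MYRFWT, and FKBP10 had 10352 and 8541 bp in MYRFKO and 9226 and 10581 bp in MYRFWT. The clones were separated by a few base pairs in FKBP11, before centring only, and overlapped in FKBP10. The secreted protein MANF, which is released under ER calcium loss, had 5041 and 4713 bp in MYRFKO and 5193 and 4727 bp in MYRFWT. CRELD2, another secreted ER stress protein, had 8221 and 6358 bp in MYRFKO and 6739 and 8391 bp in MYRFWT. Both secreted genes overlapped between the clones. The remaining members, among them PPIB, PPIC, CLGN, ERP44, TXNDC5, TMX1, SIL1, DNAJC3, FKBP7 and FKBP14, had fitted differences between −0.24 for PDIA5 and 0.28 for TXNDC12, with none called.

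Within 2 kb of a listed start, a window chosen after seeing the data, both MYRFKO libraries lay below both MYRFWT libraries in 3 of 34 members, or 8.82%, against 20.4% of 10923 other genes. These were ERO1A, PDIA5 and QSOX1. Both MYRFKO libraries lay above in 6 members, or 17.6%, against 12.3% of other genes, and these were DNAJB9, DNAJC10, DNAJC3, PDIA6, TMX4 and TXNDC11. HSPA5 was in neither group.

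**Figure D5:**
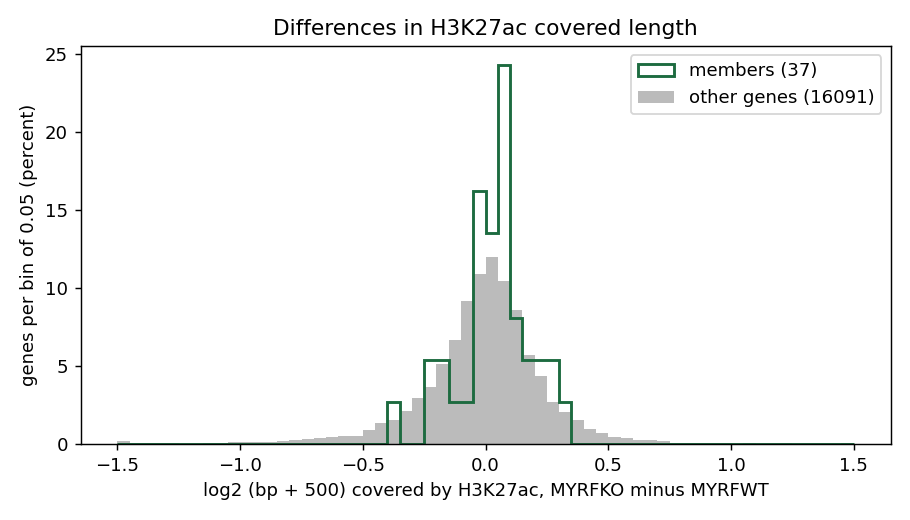
Distribution of the fitted difference in H3K27ac covered length, MYRFKO minus MYRFWT on log2(bp + 500), for the 37 members (green outline) and 16091 other genes (grey), as percent of genes per bin of 0.05, with other genes beyond ±1.5 drawn in the outermost bins. Members lie between −0.38 and 0.34, with a median of 0.050, inside the range of the other genes.

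Few acetylated regions of the members were in both libraries of 1 clone and in neither library of the other. Of 229 regions in member windows, merged over the 4 lists, 144 were in all 4 libraries, or 62.9%, against 43.7% of 96249 regions in windows of other genes. In both MYRFWT and neither MYRFKO library, here called lost, were 3 regions, or 1.31%, against 3.35%. In both MYRFKO and neither MYRFWT library, here called gained, was 1 region, or 0.437%, against 1.68%. The other 81, or 35.4%, were mixed, against 51.3% in windows of other genes, and mixed regions include those in 1 library alone.

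Per gene, 3 members held a lost region, or 8.11%, against 17.9% of other genes, and 1 held a gained region, or 2.70%, against 11.6%. Without 1 library these counts were higher, since fewer libraries must agree: lost regions were then in 7 members without MYRFKO library 1, 7 without MYRFKO library 2, 15 without MYRFWT library 1 and 12 without MYRFWT library 2. The shares of other genes with a lost region were 33.7%, 32.6%, 44.1% and 44.4% in that order. Gained regions were in 9, 11, 5 and 4 members in the same order, against 37.8%, 40.3%, 23.6% and 21.6% of other genes. With a −log10 q of at least 10 the order of the shares turned: 5 members held a lost region, or 13.5%, against 11.0% of other genes, and 2 a gained one, or 5.41%, against 4.16%.

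The lost region of PDIA5, a PDI family enzyme known for acting on the stress sensor ATF6, was 427 bp wide at chr3:123066548-123066974 and centred 264 bp upstream of the start. Its folds in MYRFWT were 4.70 and 4.92, at percentiles 39.6 and 41.6. The sequence before the PDIA5 start is printed because the lost region covered most of it. From RefSeq, GRCh38.p14, it held no ERSE, ERSE-II, AP-1 or MYRF pattern as spelled out above and has no capitals. The letters CCACG alone, read on either strand, were in the PDIA5 promoter and in 79.4% of the 34 member promoters, against 50.1% of those of other genes and 38.1% of all promoters.
PDIA5, chr3:123066775-123067024, plus strand: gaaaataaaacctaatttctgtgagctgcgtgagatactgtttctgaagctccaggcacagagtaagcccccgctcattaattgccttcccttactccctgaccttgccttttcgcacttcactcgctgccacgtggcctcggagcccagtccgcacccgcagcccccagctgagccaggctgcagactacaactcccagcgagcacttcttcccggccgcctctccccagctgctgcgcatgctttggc

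The lost QSOX1 region, chr1:180165763-180166173, lay 11099 bp downstream of its start, with folds of 3.20 and 3.60 in MYRFWT. The lost region in the FKBP2 window, chr11:64239018-64239490, was nearest to VEGFB, with folds of 4.28 and 6.35 in MYRFWT. The gained region, chr1:52007195-52007441, had folds of 4.83 and 5.02 in MYRFKO and was nearest to TXNDC12, a small thioredoxin-like ER protein. None of these 4 regions overlapped a MYRF or FOS peak, and all were under 500 bp wide.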

How the data were processed

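Peak lists of 10 ChIP-seq libraries were used; 1 HPAF2 input sample was not analysed here. Tools named in the submitters' processing notes are MACS2 2.1.0.20150731, Bowtie2 2.2.6, Trimmomatic 0.38 and SAMtools, and the build is GRCh38. For each peak the deposited lists give a fold enrichment computed by the authors at its summit (a ratio to local background), the −log10 p and −log10 q, and a score derived from the −log10 q by the authors. The control used for peak calling is not given in the sources used here, so folds were used within a list only. No peak had an equal interval and fold in both replicates of a group.

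A summit counted for each gene whose RefSeq span (GRCh38.p14), extended by 20 kb on each side, held it, so a summit can count for several genes, and a median of 2 and up to 8 other genes shared a member window. Covered length is the base pairs under merged H3K27ac peaks. Peaks overlapping by at least 1 bp shared a site. Covered length was fitted with limma 3.58.1 in R 4.3.3 on log2(bp + 500), MYRFKO minus MYRFWT, without a replicate block. The fit was also run on simulated lengths, with changes far larger than the members' differences and the same spread for all genes. That run does not show whether differences of the members' size can be detected. With 2 libraries against 2, an exact permutation test cannot go below p = 0.33, so none was run. Member counts were set beside those of other genes, with no test of the list.

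The members, lists and tests were chosen with earlier results of these data known. Values in every library are given for members with MYRF in both libraries of a line, for 14 core members, and for the 4 lowest and 4 highest differences among members whose clones do not overlap; FKBP2, PDIA5, TXNDC12, ERO1B and other members were named outside that rule after their values were seen. Alternatives covered the window, a −log10 q of at least 10, nearest gene only, centring, pseudocounts of 100 and 2000 bp, the gene filter, the replicate block and leaving out each H3K27ac library. Python 3.11.15, numpy 2.4.6, pandas 2.3.3 and matplotlib 3.10.9 were used.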

Additional observations from a re-analysis of the deposited data

How the results depend on the processing

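The limma counts of called genes and called members were 0 under every alternative run, the replicate block included. With the replicate block the median difference over members remained 0.050; the replicate numbers did not pair the libraries (r = −0.177 between the clones over genes). Crossed pairs, added after seeing the data, also gave 0 calls. The median difference over members ran between 0.020 and 0.068 when 1 library was left out, and was −0.0092 without centring. Leaving out 1 MYRF library gave 6 to 7 members for CFPAC1 (18.0% to 19.8% of other genes) and 6 to 7 for HPAF2 (16.2% to 18.4%). Over the remaining MYRF libraries it gave 3 to 4 members (8.43% to 9.1%). Leaving out FOS library 1 gave 22 members (71.4%), and leaving out FOS library 2 gave 16 (64.2%). Other counts depended on the window. With 5 kb flanks, MYRF summits were in 3 members in both CFPAC1, 2 in both HPAF2 and 1 in all 4 libraries (9.78%, 8.96% and 5.16% of other genes), 3 members lay below MYRFWT (25.2%) and 0 held a gained region (7.91%). With 50 kb flanks the counts were 9, 9 and 7 for MYRF (22.3%, 20.9% and 13.0% of other genes), 8 below (25.9%), 7 with a lost (26.6%) and 6 with a gained region (17.8%). A −log10 q of at least 10 gave 1, 2 and 1 for MYRF (5.69%, 5.95% and 3.29% of other genes), 10 for FOS (37.1%), 11 below (27.1%), 5 with a lost (11.0%) and 2 with a gained region (4.16%). Nearest gene only gave 2, 2 and 0 for MYRF (9.88%, 9.3% and 5.39%). Within 2 kb of a listed start, 3 members lay below. Centring the covered length gave 2 below and 9 above. Pseudocount and block do not enter these counts on lengths. Leaving out 1 library gave 11 to 17 members below, 9 to 13 above, 7 to 15 with a lost and 4 to 11 with a gained region. The cause was not tested. By construction, fewer libraries that must agree admit more genes, and a wider window admits more summits and more lost or gained regions. A wider window does not by construction raise the count below. Of other genes 25.2% lay below with 5 kb flanks and 25.9% with 50 kb flanks. Of 103 alternative values, 63 lay within the limits set for no change and 40 moved. Depth is unknown, and a weak peak missing from a list is not shown to be absent.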

Other observations

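The regulators and effectors of the unfolded protein response, a list of 24 genes outside the members, were described in the same way. A MYRF summit lay in the window in all 4 MYRF libraries in 3 of 24, CREB3L4, SYVN1 and ERN2, or 12.5%, against 7.75% of other genes. The same 3 had one in both CFPAC1 libraries, against 14.2% of other genes. In both HPAF2 libraries it lay in 7, which adds NFE2L2, CREB3L1, DDIT3 and TRIB3, or 29.2%, against 13.1%. CREB3L4 and CREB3L1 are membrane-bound transcription factors of the CREB3 family, SYVN1 is the ubiquitin ligase of ER-associated degradation, and ERN2 is the IRE1 form of mucosal epithelia. FOS had a summit in both libraries in 18 of 24, against 62.6% of other genes.

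H3K27ac covered length was below both MYRFWT libraries in both MYRFKO libraries in 6 of the 24 (CREB3L4, ATF6, EDEM1, CREB3L1, PPP1R15A and XBP1), against 25.9% of other genes. It was above in 2 (MBTPS1 and ATF4), or 8.33%, against 10.5%. CREB3L1 had 5479 and 2637 bp covered in MYRFKO, against 7298 and 7175 bp in MYRFWT, the lowest fitted difference of the list at −0.78 ± 0.33 (SE; limma, adjusted p = 0.928). ATF4, which drives genes of the integrated stress response, had 8345 and 8260 bp in MYRFKO, against 5967 and 7889 bp in MYRFWT. Among the 24, 17 fitted differences were positive and 7 negative, with a median of 0.026, and limma called 0 of them, with 0 at an unadjusted p under 0.05.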
